A study of Homo sapiens with 9 samples.

Results

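The genes described here encode the nuclear subunits of the oxidative phosphorylation system of mitochondria. They were chosen by symbol from the 30017 rows of the gene count table: NDUFA, NDUFB, NDUFC, NDUFS and NDUFV genes with a number, UQCR genes, COX4 to COX8 genes, ATP5 genes, SDHA to SDHD and CYC1. Of 93 matching rows, 2 were pseudogenes (ATP5EP2 and UQCRBP1) and were left out, which gave 91 rows. Of these, 85 encode a subunit or a tissue isoform of a subunit: 36 in complex I, 4 in complex II, 10 in complex III, 19 in complex IV and 16 in complex V. The other 6 rows share only the name: the antisense RNAs NDUFA6-AS1 and NDUFB2-AS1, the read-through genes NDUFC2-KCTD14 and ATP5J2-PTCD1, ATP5S, which is no structural subunit of the synthase, and ATP5SL, a complex I assembly protein. NDUFA4 and NDUFA4L2 carry complex I names but are placed with complex IV, where NDUFA4 is now assigned.

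RNA-seq was performed on MOLM13, a human line of monocytic acute myeloid leukemia (AML). Cells were transduced with lentivirus of the pLKO-GFP type that carried either sh-Control, shDDX41 #1 or shDDX41 #2, where DDX41 encodes a DEAD-box RNA helicase and both hairpins target it. All 3 groups therefore carried virus, a hairpin and green fluorescent protein, and all were sorted for that protein on day 4. Each group had 3 libraries, named by the letters A, B and D, and the labels do not say whether these came from separate cultures, so p-values measure the spread between these libraries. The comparison asks how the RNA of complexes I to V stood in cells with less DDX41.

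Complex I takes electrons from NADH and complex II takes them from succinate, and both pass them to ubiquinone. Complex III hands them on to cytochrome c, complex IV transfers them to oxygen, and the proton gradient built on the way drives complex V, the ATP synthase. Complex II is made of nuclear products alone, while the other complexes also hold subunits encoded by mitochondrial DNA. Those 13 mitochondrial genes have no row in the table and were not analysed here. AML cells are known for their reliance on this pathway.

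Libraries held 16385238 to 20510032 counts, of which 1.338% to 1.511% fell on the 91 rows. DDX41 had a mean of 115 CPM (the counts of a gene scaled by the size of its library) ± 1.76 (SD, n = 3) with sh-Control, 40.4 ± 1.85 with shDDX41 #2 and 11.7 ± 1.56 with shDDX41 #1. It was thus lower with both hairpins and lowest with shDDX41 #1. Of 12 AML and monocytic markers, 11 passed 1 CPM, and their sum was 2728 to 2902 CPM with sh-Control, 2806 to 2926 with shDDX41 #1 and 3633 to 3700.0 with shDDX41 #2. Among them, LYZ went from 877, 931 and 987 CPM with sh-Control to 1833, 1827 and 1795 CPM with shDDX41 #2. MPO went from 118, 114 and 105 to 169, 165 and 174 CPM, while CSF1R went from 23.5, 21.6 and 21.1 to 17.2, 20.2 and 18.1 CPM. By the edgeR test given below, 4 of the 11 tested markers were called higher with shDDX41 #2 and 0 lower, beside 25.0% of all genes called. CD14 did not pass 1 CPM in any library. The part of these markers in the results was not tested. The summed lymphoid markers (1 of 7 over 1 CPM) ran from 1.27 to 3.27 CPM, the erythroid ones (1 of 6, EPOR) from 10.5 to 13.5 CPM and the epithelial and stromal ones (3 of 7) from 16.2 to 21.2 CPM, with CD3G, MS4A1, HBA1, HBB, ALAS2, CDH1 and COL1A2 at 0 throughout. In such bulk samples, fewer cells of a type and less RNA per cell cannot be told apart.

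Of the 91 rows, 82 passed the filter on low counts (78 of the 85 subunit rows). The other 9 had at most 6 counts in a library. Subunit rows that passed ranged from 2.63 CPM (NDUFA4L2) to 1265 CPM (ATP5B) with sh-Control, and 77 of the 78 had at least 200 counts in every library. A gene was called at an adjusted p under 0.05 in edgeR's quasi-likelihood test, adjusted over all 12712 genes tested. With shDDX41 #1 against sh-Control, 25 of the 82 were called, 30.5%, while 47.8% of all genes tested were. Of these, 6 were higher (background 23.7%) and 19 lower (background 24.1%). With shDDX41 #2 against sh-Control, 3 of the 82 were called, 3.66%, beside 25.0% of all genes, 1 of them higher (background 11.6%) and 2 lower (background 13.4%). Between the hairpins, 21 were called, 25.6%, beside 48.8% of all genes, 8 higher with shDDX41 #1 (background 24.6%) and 13 lower (background 24.2%). The groups did not overlap in CPM for 23, 18 and 26 of the 82 in these contrasts (28.0%, 22.0% and 31.7%), where the background was 53.1%, 43.8% and 57.7%. With upper quartile scaling the calls were 9 higher and 12 lower with shDDX41 #1, and 11 and 11 between the hairpins. With scaling by library size alone, those between the hairpins were 11 higher and 13 lower. The medians of the 82 log2 fold changes were 0.00, 0.02 and -0.03 in these contrasts, and those of all genes were 0.01, -0.01 and 0.01.

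The changes of the members were small as well as few. The median size of a log2 fold change, regardless of sign, was 0.12 with shDDX41 #1 and 0.08 with shDDX41 #2 over the 78 subunit rows, against 0.29 and 0.18 over all genes tested. Members are abundant, so their errors were also smaller (median SE 0.0853 against 0.0997 with shDDX41 #1). Over the 7943 genes with at least 200 counts in every library, whose median SE was 0.0819, the median size was 0.23 with shDDX41 #1 and 0.14 with shDDX41 #2, and 53.2% and 28.2% were called. The 95% confidence interval lay within a 1.5-fold change either way for 69 of 78 subunit rows with shDDX41 #1 and for 76 of 78 with shDDX41 #2. The corresponding shares of all genes tested were 53.5% and 67.2%, and those of the 7943 genes were 73.8% and 89.9%. Only NDUFA4L2 and COX7C were both called and changed by at least 1.5-fold, and this held for both hairpins.

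**Figure D1:**
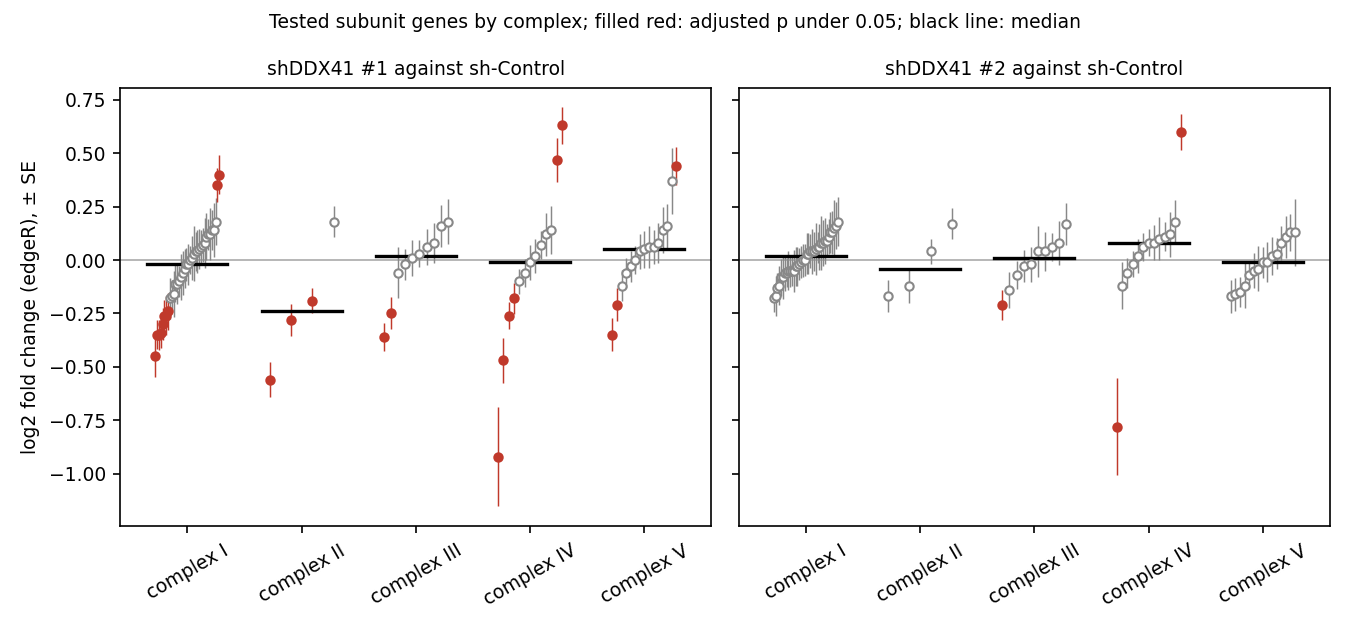
Log2 fold change (vertical axis, ± SE) of each of the 78 tested subunit genes by complex, for shDDX41 #1 (left) and shDDX41 #2 (right) against sh-Control, with filled red points for an adjusted p under 0.05 and a black line at the median of the complex. With shDDX41 #1, 24 points are red and 19 of them lie below 0; with shDDX41 #2, 3 are red, and COX7C stands at 0.60 and NDUFA4L2 at -0.78.

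One feature ran through nearly all members and was not a difference between groups. Library D was the highest of the 3 sh-Control libraries for 67 of 78 subunit rows (85.9%, against 35.8% of all genes) and the highest of the shDDX41 #1 libraries for 72 of 78 (92.3%, against 40.8% of all genes). With shDDX41 #2, library D was the highest for 13 of 78. A score was computed for each library as the median over the 78 rows of log2 CPM minus the mean of sh-Control. It was -0.019, -0.076 and 0.102 in sh-Control A, B and D, -0.099, -0.090 and 0.177 in shDDX41 #1 A, B and D, and 0.029, 0.022 and -0.021 in shDDX41 #2 A, B and D. The same median over all genes tested stayed between -0.009 and 0.016. The subunit genes thus moved together by more between libraries of 1 group than between the group means, and the groups overlapped.

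Library D of shDDX41 #1 also stood apart over all genes: its counts differed from those of A and B by a chi-square of 17.6 and 19.2 per degree of freedom, while A and B differed by 2.91. Without it, the calls with shDDX41 #1 against sh-Control were 32 of 82, 6 higher and 26 lower, with a median of -0.08, where 48.5% of all genes were called. In that fit, 10 members were called with shDDX41 #2 against sh-Control, 5 in each direction, where 32.9% of all genes were, and 35 between the hairpins, 5 higher and 30 lower with shDDX41 #1, with a median of -0.13, where 49.0% of all genes were. What set library D apart was not tested.

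**Figure D2:**
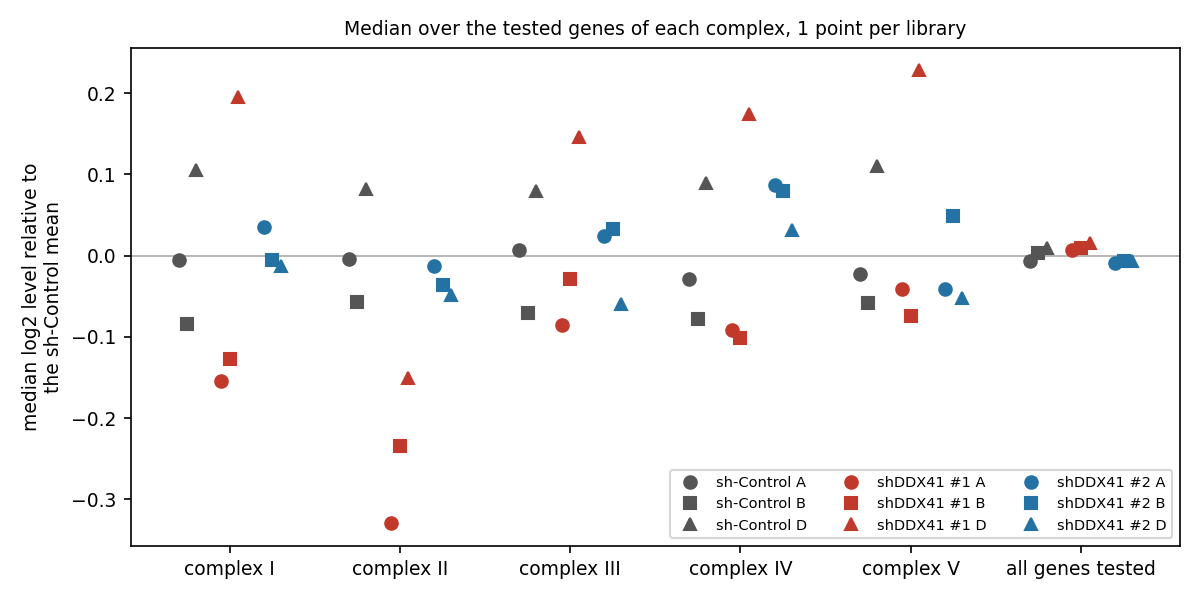
Median over the tested genes of each complex, and over all genes tested, of log2 CPM minus the mean of sh-Control (vertical axis), with 1 point per library, coloured by group and shaped by replicate letter. Triangles mark library D, which is the highest sh-Control and the highest shDDX41 #1 point in every complex; for complex II all 3 shDDX41 #1 points, from -0.329 to -0.15, lie below the 6 other points.

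Complex II had the lowest median of the 5 complexes with shDDX41 #1. Its 4 genes had a median log2 fold change of -0.24 with shDDX41 #1, against -0.02 in complex I, 0.02 in complex III, -0.01 in complex IV and 0.05 in complex V. In each library the median of complex II relative to sh-Control was -0.329, -0.234 and -0.15 with shDDX41 #1 (A, B and D), and -0.057 to 0.082 with sh-Control and -0.048 to -0.013 with shDDX41 #2. With shDDX41 #2 the medians were 0.02, -0.04, 0.01, 0.08 and -0.01 for complexes I to V. A complex of 4 genes gives a median that rests on 2 of them, and no test was run on it.

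SDHD, one of the pair of membrane anchors of complex II, fell the most of these 4. It measured 180.1, 183 and 207 CPM with sh-Control, 127, 116 and 145 CPM with shDDX41 #1, and 178, 177 and 168 CPM with shDDX41 #2. The shDDX41 #1 libraries lay below all the others. The log2 fold change was -0.56 ± 0.0820 (SE) against sh-Control (adjusted p = 5.9e-05) and -0.44 ± 0.0820 against shDDX41 #2 (adjusted p = 4.8e-04), and that of shDDX41 #2 against sh-Control was -0.12 and not called. Its exons overlap those of TIMM8B on the other strand, and 3 pseudogenes bear its name, so its reads are less certain than those of SDHB.

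SDHB, the iron-sulfur subunit, measured 151, 137 and 156 CPM with sh-Control, 110.4, 120.2 and 134 CPM with shDDX41 #1, and 131, 129 and 134 CPM with shDDX41 #2. It fell with shDDX41 #1 (log2 fold change -0.28 ± 0.0760, adjusted p = 0.00666), while the shDDX41 #2 value of -0.17 was not called. SDHA, the flavoprotein that oxidizes succinate, measured 233, 216 and 226 CPM with sh-Control, 190.2, 199 and 201 CPM with shDDX41 #1, and 235, 229 and 231 CPM with shDDX41 #2. Its fall with shDDX41 #1 was -0.19 ± 0.0588 on the log2 scale (adjusted p = 0.0141), and against shDDX41 #2 it was -0.23 ± 0.0588 (adjusted p = 0.00405). SDHC, the other anchor, stood on the other side of 0, at 65.0, 64.6 and 70.8 CPM with sh-Control, 75.2, 70.9 and 81.3 CPM with shDDX41 #1, and 72.7, 80.3 and 72.1 CPM with shDDX41 #2, and was called in neither contrast (adjusted p = 0.0531 and 0.107). It was called higher with shDDX41 #1 in 6 of 11 alternative settings and in 2 of the 9 fits without 1 library, with log2 fold changes from 0.14 to 0.26 over all of them, so that it lay at the threshold. With shDDX41 #2, none of the 4 was called in edgeR, DESeq2 or limma voom, and 2 had an unadjusted p under 0.05. SDHB was called lower there with GC and length offsets, with or without a block, and SDHC higher in the fit of the 6 libraries compared, and both were called without shDDX41 #1 D.

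**Figure D3:**
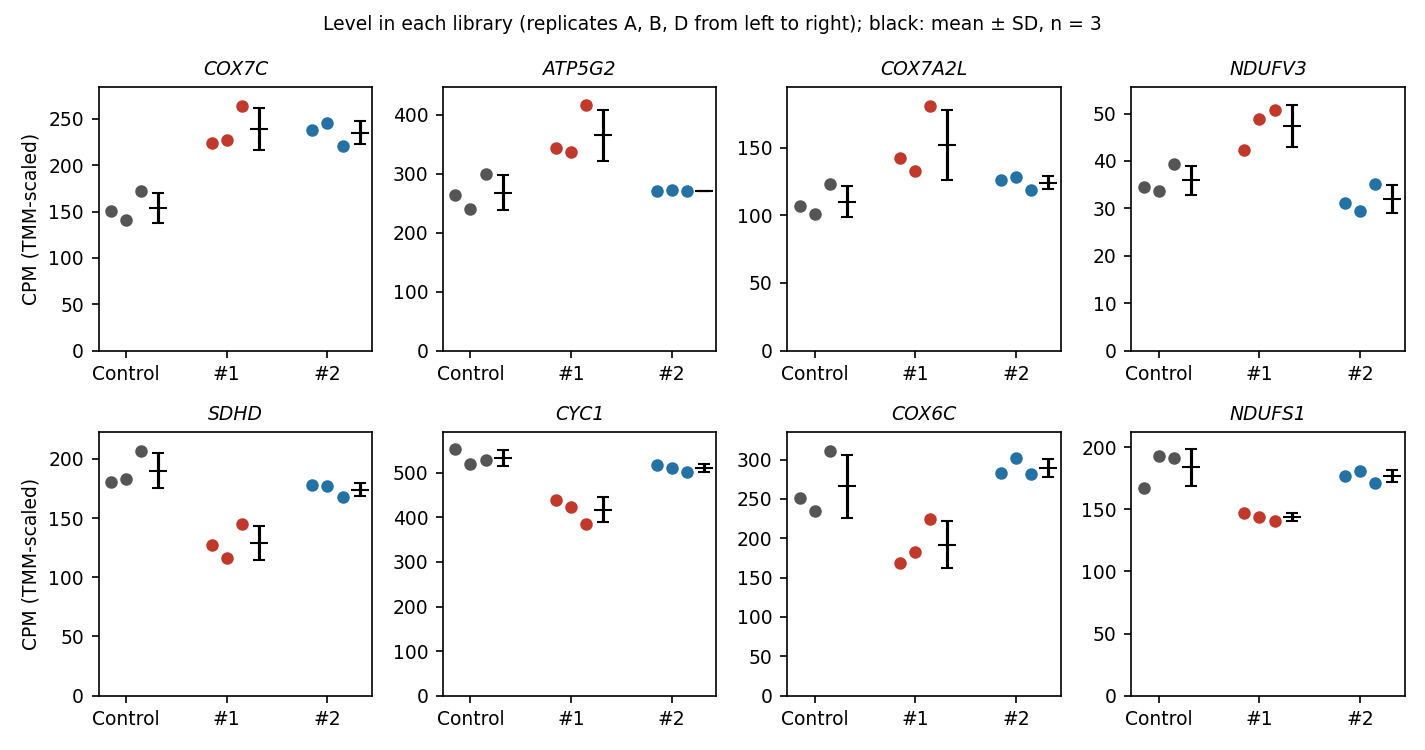
Level (CPM, vertical axis from 0) of 8 subunit genes in each library, with the 3 points of a group ordered A, B, D and the mean ± SD (n = 3) in black. COX7C is higher in all 6 libraries with a DDX41 hairpin, ATP5G2, COX7A2L and NDUFV3 are higher with shDDX41 #1, and SDHD, CYC1, COX6C and NDUFS1 are lower with shDDX41 #1, with no overlap between the shDDX41 #1 and sh-Control points.

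In complex I all 36 rows were tested, and 10 were called with shDDX41 #1 (27.8%), 2 higher and 8 lower. The number was 17 with GC and length offsets, with or without a block, where 52.9% and 54.2% of all genes were called. It was 16 without shDDX41 #1 D (48.5% of all genes), 7 without shDDX41 #1 B (42.7%), and 8 to 11 in the other refits at the same threshold. No complex I row was called with shDDX41 #2 in edgeR, DESeq2 or limma voom, and 1 had an unadjusted p under 0.05. At most 3 were called in any other fit with shDDX41 #2 (with GC and length offsets and a block). The log2 fold changes there ran from -0.18 to 0.18. With shDDX41 #1, 5 of the 7 catalytic core subunits, which carry the electrons from NADH to ubiquinone, were called (71.4%), and 5 of the 29 accessory subunits (17.2%), beside 47.8% of all genes and 53.2% of those with at least 200 counts in every library. The difference between core and accessory subunits was not tested. The core genes had a median log2 fold change of -0.24 and the accessory genes of 0.01.

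NDUFS1, the largest core subunit, measured 167, 193 and 191 CPM with sh-Control, 147, 144 and 141 CPM with shDDX41 #1, and 177, 181 and 171 CPM with shDDX41 #2. It was lower in each shDDX41 #1 library than in any other and, unlike most members, was not raised in library D. The log2 fold change was -0.35 ± 0.0676 against sh-Control (adjusted p = 5.9e-04) and -0.29 ± 0.0676 against shDDX41 #2 (adjusted p = 0.00221). NDUFS7, which holds the last iron-sulfur cluster before ubiquinone, measured 109, 93.3 and 97.5 CPM with sh-Control and 75.4, 78.1 and 83.7 CPM with shDDX41 #1, a change of -0.34 ± 0.0734 (adjusted p = 0.00145), and 98.3, 97.1 and 105 CPM with shDDX41 #2.

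NDUFS3, a core subunit of the ubiquinone-binding part, fell from 96.5 ± 8.60 to 78.4 ± 5.04 CPM (SD, n = 3), or by 0.30 on the log2 scale (SE 0.0753, adjusted p = 0.00413). NDUFS8, another iron-sulfur subunit, fell from 60.3, 52.3 and 52.6 to 43.8, 43.4 and 52.9 CPM with overlapping groups, or by 0.24 (SE 0.0861, adjusted p = 0.0329). NDUFS8 lost this call in 3 of the 9 fits without 1 library and in 2 of 11 alternative settings. The core subunits of the flavin end, NDUFV1 and NDUFV2, were not called with either hairpin. NDUFV1 had 206 ± 17.5 CPM with sh-Control, 193 ± 12.7 with shDDX41 #1 and 215 ± 5.47 with shDDX41 #2, and NDUFV2 ran from 146 to 165, 138 to 169 and 151 to 160.3 CPM in the same order.

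Among the accessory subunits of complex I, NDUFA5 had the largest fall with shDDX41 #1. It measured 94.8, 93.6 and 103 CPM with sh-Control, 66.7, 61.2 and 84.9 CPM with shDDX41 #1, and 97.0, 96.6 and 88.1 CPM with shDDX41 #2. The log2 fold change was -0.45 ± 0.0987 (adjusted p = 0.00152), and 12 pseudogenes bear its name. NDUFV3, an accessory subunit at the flavin end, had the largest rise, with 34.6, 33.6 and 39.4 CPM in sh-Control, 42.3, 48.8 and 50.7 CPM in shDDX41 #1, and 31.1, 29.4 and 35.2 CPM in shDDX41 #2. It rose by 0.40 ± 0.0928 on the log2 scale against sh-Control (adjusted p = 0.00253) and by 0.57 ± 0.0935 against shDDX41 #2 (adjusted p = 1.4e-04). NDUFA6, NDUFA12 and NDUFB6 were also lower with shDDX41 #1, by log2 fold changes of -0.35, -0.26 and -0.26.

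**Figure D4:**
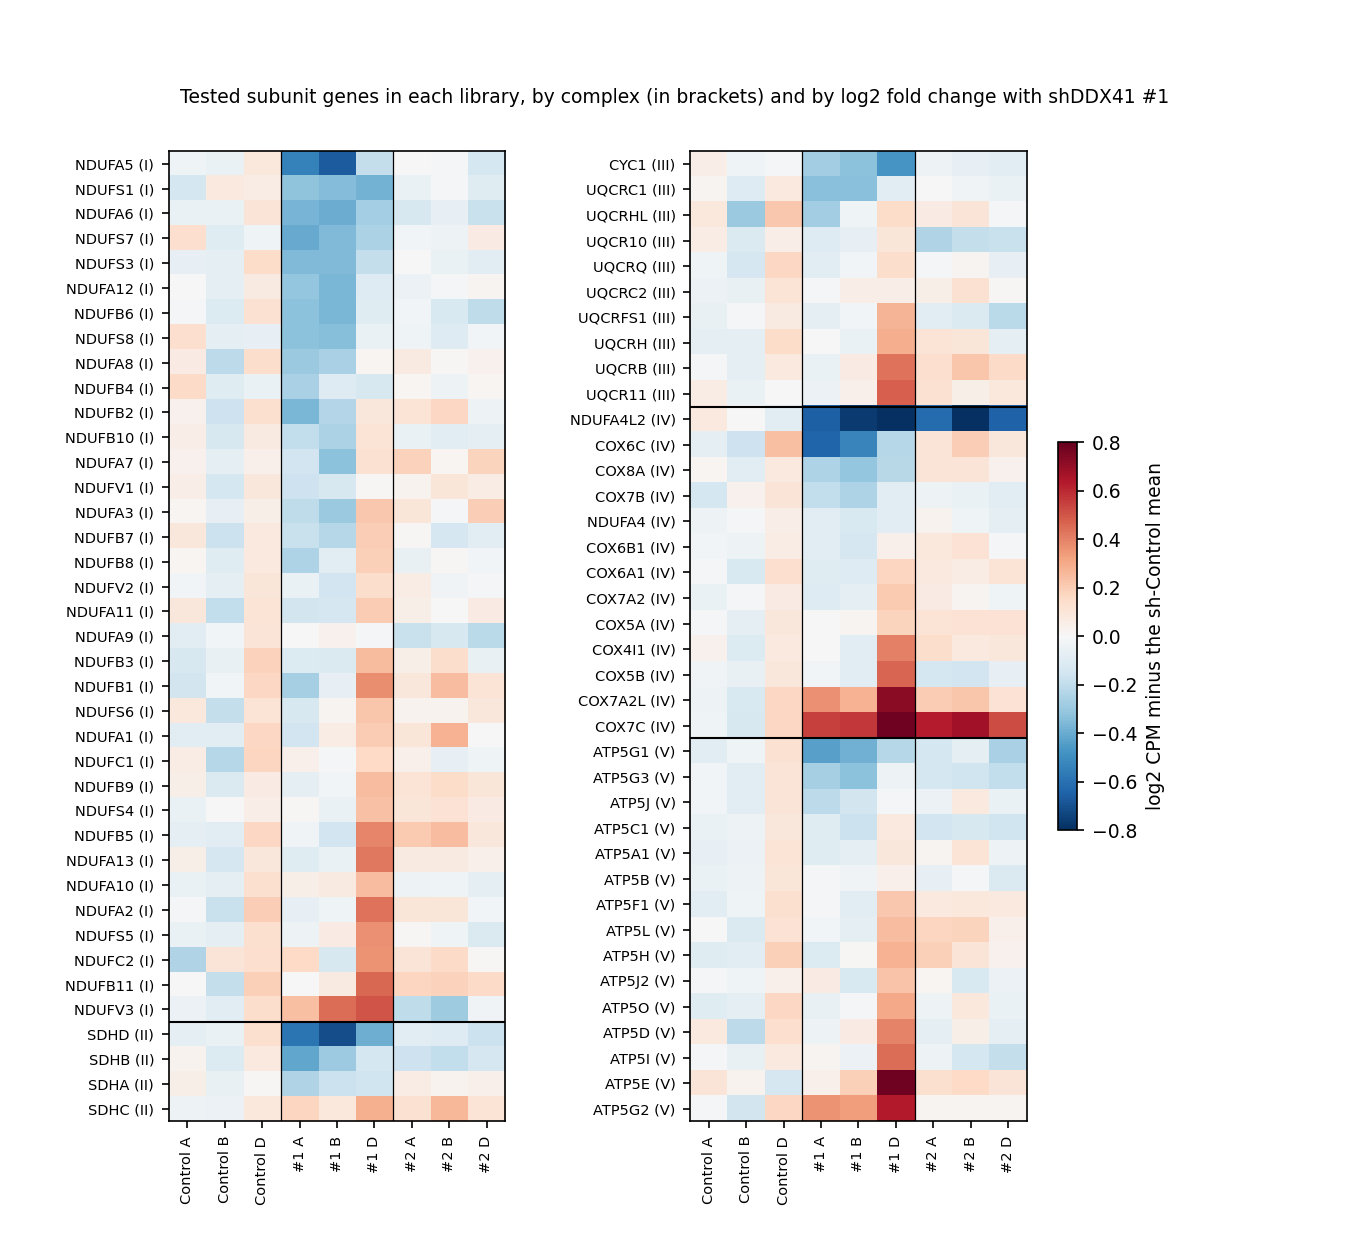
Level of 77 of the 78 tested subunit genes (rows, with the complex in brackets) in each library (columns), as log2 CPM minus the sh-Control mean, with colours saturating at 0.8 either way and rows ordered within a complex by the log2 fold change with shDDX41 #1. The column of shDDX41 #1 D is red in most rows where A and B are pale or blue, while NDUFA5, NDUFS1, SDHD, CYC1 and COX6C are blue in all 3 shDDX41 #1 columns and COX7C is red in all 6 hairpin columns.

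In complex III, 2 of 10 rows were called with shDDX41 #1, both lower, and 1 of 10 with shDDX41 #2. Both shares lay below those of all genes tested, of which 47.8% and 25.0% were called. With shDDX41 #1, 24.1% of all genes were called lower. CYC1, the cytochrome c1 that reduces cytochrome c, measured 554, 520.1 and 528 CPM with sh-Control, 439.9, 424 and 385 CPM with shDDX41 #1, and 518, 511 and 501 CPM with shDDX41 #2. Its lowest value was in library D of shDDX41 #1, where most members were highest. The log2 fold change was -0.36 ± 0.0643 against sh-Control (adjusted p = 3.4e-04) and -0.29 ± 0.0643 against shDDX41 #2 (adjusted p = 0.00158). UQCRC1, one of the pair of large core proteins, fell from 293 ± 18.8 to 247 ± 25.2 CPM (log2 fold change -0.25 ± 0.0752, adjusted p = 0.0131), with overlapping groups. UQCRC1 lost this call in 3 of the 9 fits without 1 library and in 1 of 11 alternative settings. Its partner UQCRC2 had 216 ± 14.2 and 221 ± 5.82 CPM and was not called. UQCRFS1, the Rieske iron-sulfur protein, had 267 ± 12.7 CPM with sh-Control, 279 ± 37.3 with shDDX41 #1 and 242 ± 11.5 with shDDX41 #2, with no call.

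UQCR10, a small accessory subunit, was the complex III call with shDDX41 #2: 114, 101 and 113 CPM with sh-Control against 92.1, 95.6 and 96.5 CPM, a log2 fold change of -0.21 ± 0.0719 (adjusted p = 0.0485). The call was lost in 7 of the 9 fits that left out 1 library, where the change ran from -0.26 to -0.18. It was also lost in 5 of 11 alternative settings. UQCRHL is an intronless copy of UQCRH whose reads cannot be told from those of its parent with certainty. Neither was called with a hairpin.

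In complex IV, 13 of 19 rows were tested, and 6 were called with shDDX41 #1 (46.2%) and 2 with shDDX41 #2 (15.4%). Of all genes tested, 47.8% and 25.0% were called. COX7C, a small subunit of the oxidase present in all tissues, was the only member called higher with both hairpins. It measured 150.2, 141 and 172 CPM with sh-Control, 224, 227 and 264 CPM with shDDX41 #1, and 238, 245 and 221 CPM with shDDX41 #2. All 6 libraries with a DDX41 hairpin lay above the highest sh-Control library. This was also so for SDHC, which was called with neither hairpin. The log2 fold change of COX7C was 0.63 ± 0.0844 with shDDX41 #1 (adjusted p = 2.5e-05) and 0.60 ± 0.0843 with shDDX41 #2 (adjusted p = 1.2e-04). Between the hairpins it was 0.02 with a 95% confidence interval from -0.15 to 0.20. Both comparisons share the sh-Control libraries. GENCODE lists 1 pseudogene of COX7C, and exons of COX7C overlap those of AC108110.1 on the same strand. No member was called in opposite directions by the 2 hairpins.

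COX6C, another small subunit, moved down with shDDX41 #1 alone. It measured 251, 235 and 311 CPM with sh-Control, 169, 183 and 225 CPM with shDDX41 #1, and 283, 302 and 282 CPM with shDDX41 #2. The log2 fold change was -0.47 ± 0.107 against sh-Control (adjusted p = 0.00228) and -0.59 ± 0.107 against shDDX41 #2 (adjusted p = 3.8e-04). GENCODE lists 17 pseudogenes of its name, so its reads are uncertain. COX8A, the ubiquitous form of subunit VIII, fell from 175 ± 10.3 to 146 ± 4.45 CPM with shDDX41 #1 (log2 fold change -0.26 ± 0.0635, adjusted p = 0.00343) and stood at 184 ± 5.18 CPM with shDDX41 #2. COX7B fell from 191 ± 16.4 to 169 ± 9.60 CPM with overlapping groups (-0.18 ± 0.0711, adjusted p = 0.0484). This call was lost in 7 of the 9 fits without 1 library and in 6 of 11 alternative settings. The larger nuclear subunits were not called with either hairpin: COX4I1 had 405 ± 27.5, 440.1 ± 83.3 and 434 ± 9.69 CPM in sh-Control, shDDX41 #1 and shDDX41 #2, COX5A had 209.8 ± 12.7, 219.8 ± 15.4 and 227 ± 0.415, and COX5B had 179 ± 9.86, 197 ± 43.4 and 164 ± 5.62.

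The isoforms of complex IV were nearly all those of ubiquitous use. COX4I2, COX6A2 and COX7B2 had 0 counts in every library, which allows at most 0.146 to 0.183 CPM by counting error (3 counts), and COX7A1, COX8C and COX6B2 also failed the filter. Of their ubiquitous partners, COX4I1, COX6A1, COX6B1 and COX7A2 were not called with either hairpin, and COX7B and COX8A were lower with shDDX41 #1, as given above. COX7A2L, a COX7A-related protein that takes part in joining complexes III and IV into supercomplexes, was higher with shDDX41 #1. It measured 107, 101 and 123 CPM with sh-Control, 142, 133 and 181 CPM with shDDX41 #1, and 126, 128 and 119 CPM with shDDX41 #2. It rose by 0.47 ± 0.103 on the log2 scale with shDDX41 #1 (adjusted p = 0.00168), and the 0.18 of shDDX41 #2 was not called. Its share of the counts of COX7A2L and COX7A2 together was 35.2%, 33.3% and 36.6% with sh-Control, 42.8%, 40.8% and 43.5% with shDDX41 #1, and 37.3%, 38.2% and 37.5% with shDDX41 #2, so that the groups did not overlap. NDUFA4L2, a paralog of NDUFA4 known as a hypoxia-induced gene, was low throughout, with 2.78, 2.64 and 2.48 CPM in sh-Control, 1.03 to 1.63 CPM in shDDX41 #1, and 1.67, 1.29 and 1.64 CPM in shDDX41 #2. These values rest on 17 to 50 counts a library. It was lower with both hairpins, by log2 fold changes of -0.92 ± 0.234 (adjusted p = 0.00452) and -0.78 ± 0.226 (adjusted p = 0.0201), and 3 of the 9 fits without 1 library lost the second call. Its exons overlap those of SHMT2 on the other strand. NDUFA4 itself had 132 ± 4.33, 124 ± 1.95 and 129.9 ± 4.72 CPM and was not called.

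In complex V, 15 of 16 rows were tested. With shDDX41 #1, the 3 called (20.0%, beside 47.8% of all genes) were ATP5G1, ATP5G2 and ATP5G3, the genes of the c ring. With shDDX41 #2 none of the 15 was called in edgeR, DESeq2 or limma voom, and 1 had an unadjusted p under 0.05. With GC and length offsets, ATP5G1, ATP5G3 and ATP5C1 were called lower with shDDX41 #2, and ATP5G3 was also called in the fit of the 6 libraries compared and without shDDX41 #1 D. The products of the 3 c ring genes differ in the targeting sequence that is cut off on import, and give the same mature c subunit. ATP5G2 measured 264, 241 and 299.8 CPM with sh-Control, 343, 337 and 416 CPM with shDDX41 #1, and 271, 272 and 271 CPM with shDDX41 #2, and rose by 0.44 ± 0.0881 on the log2 scale with shDDX41 #1 (adjusted p = 7.6e-04). ATP5G1 fell, from 94.5, 98.4 and 109.5 CPM to 74.5, 77.2 and 85.7 CPM (log2 fold change -0.35 ± 0.0783, adjusted p = 0.0019), with 91.4, 95.4 and 84.1 CPM in shDDX41 #2. ATP5G3 fell from 307 ± 20.1 to 266 ± 28.6 CPM with overlapping groups (-0.21 ± 0.0767, adjusted p = 0.0357). This call was lost in 7 of the 9 fits without 1 library and in 2 of 11 alternative settings.

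A share within a library is not touched by a level that the 3 genes have in common. ATP5G2 took 39.9%, 38.3% and 40.6% of their counts with sh-Control, 51.0%, 51.2% and 52.0% with shDDX41 #1, and 42.3%, 42.3% and 43.6% with shDDX41 #2. The 3 groups did not overlap, and library D of shDDX41 #1 stood with A and B. ATP5G3 took 45.5% ± 0.787 (SD, n = 3) with sh-Control, 37.5% ± 0.438 with shDDX41 #1 and 43.1% ± 0.355 with shDDX41 #2, and ATP5G1 took 14.9% ± 0.682, 11.2% ± 0.508 and 14.2% ± 0.678. Each of these shares differed between shDDX41 #1 and sh-Control with an exact two-sided permutation p = 0.1, the smallest that 3 against 3 allows. The summed CPM of the 3 genes was 676 ± 56.3 with sh-Control, 710.4 ± 77.7 with shDDX41 #1 and 635 ± 10.7 with shDDX41 #2, with overlap between shDDX41 #1 and sh-Control (exact permutation p = 0.6). GENCODE lists 7 pseudogenes of ATP5G1 and 3 of ATP5G2.

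**Figure D5:**
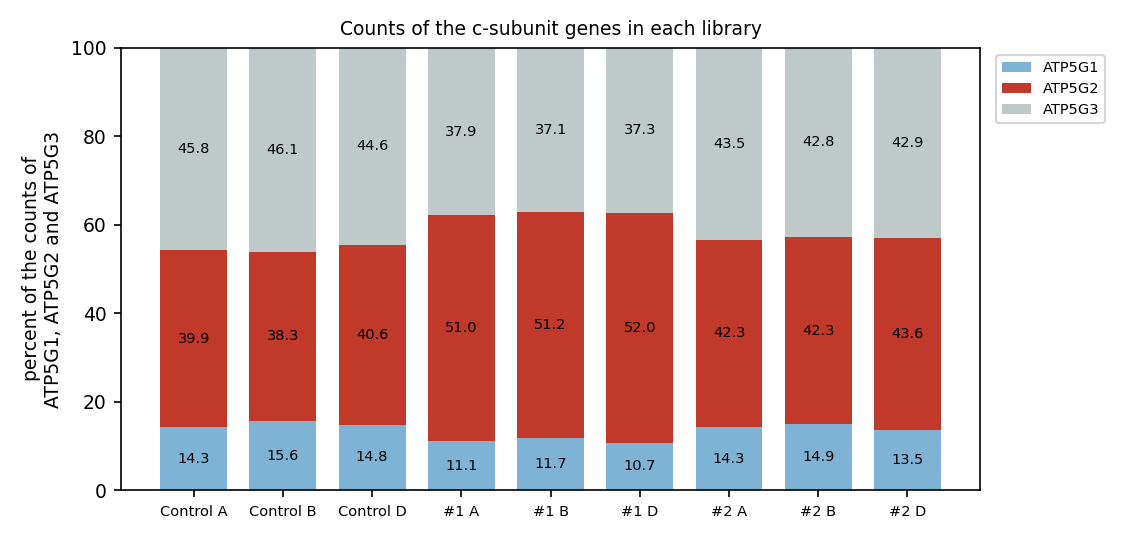
Percent of the summed counts of ATP5G1, ATP5G2 and ATP5G3 (vertical axis) that each gene took in each library. ATP5G2 takes 51.0% to 52.0% in the shDDX41 #1 libraries, 38.3% to 40.6% in the sh-Control libraries and 42.3% to 43.6% in the shDDX41 #2 libraries.

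The rest of the synthase gave no call with either hairpin in the 9-library edgeR fit. With shDDX41 #1 the number of complex V calls was 3 there, 6 with GC and length offsets with or without a block, and 2 to 4 in the other refits at the same threshold. ATP5B, the catalytic beta subunit of the F1 head, had 1219, 1226 and 1351 CPM with sh-Control, 1253, 1239.6 and 1298 CPM with shDDX41 #1, and 1207, 1249 and 1166 CPM with shDDX41 #2. Its log2 fold change with shDDX41 #1 was 0.00 with a 95% confidence interval from -0.14 to 0.14. ATP5A1, the alpha subunit, had 954 ± 64.8, 935 ± 67.3 and 974 ± 51.1 CPM, and ATP5C1, the gamma subunit of the central stalk, had 251 ± 14.2, 240.2 ± 21.7 and 226 ± 2.37 CPM. Among the rows that encode no subunit, ATP5SL rose with shDDX41 #1 from 106 ± 5.55 to 133 ± 1.33 CPM (log2 fold change 0.33 ± 0.0629, adjusted p = 5.9e-04).

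The 250 bases before the RefSeq start (GRCh38.p14) were available for 68 of the 85 subunit genes and were searched on both strands for letters bound by factors known to act on nuclear genes of mitochondria. The NRF1 core GCGCATGC was in 12 of the 68 (17.6%), against 2.8% of 27305 promoters and 5.1% of those of 9005 tested genes. The ETS core CCGGAAG, bound by GABPA, was in 23.5%, against 8.8% and 16.8%. Shares were 10.3%, 6.5% and 9.4% for the YY1 core ATGGCG, 52.9%, 42.3% and 67.1% for the SP1 core GGGCGG, and 32.4%, 33.0% and 35.6% for CCAAT. A match of letters is no evidence of binding. Of the 21 subunit genes with a promoter here that were called with a hairpin, 5 held the NRF1 core, and of 43 tested and uncalled ones, 7 did. The 5 are shown with 10 bases on each side, in the direction of the gene, with the core, here read from the other strand as GCATGCGC, in capitals (both overlapping cores for SDHD). All but ATP5G2 were lower with shDDX41 #1. By the gene bounds of GENCODE v29, which differ from the RefSeq starts used here, the sites of NDUFS7, NDUFA6 and ATP5G2 lie inside the gene. The stretch shown for SDHD reaches past the start of its gene there.
SDHB, chr1:17054215-17054242, minus strand: agccaaatggGCATGCGCcgctactgcg
SDHD, chr11:112086753-112086782, plus strand: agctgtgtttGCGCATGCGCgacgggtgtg
NDUFS7, chr19:1383824-1383851, plus strand: tccggtttccGCATGCGCtccgagccgc
NDUFA6, chr22:42090921-42090948, minus strand: ctgtagatgaGCATGCGCagcacccacc
ATP5G2, chr12:53676106-53676133, minus strand: cccgggtcacGCATGCGCtgagccttcc

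COX7C is shown because it alone was called higher with both hairpins. Its upstream sequence, from 250 to 38 bases before the RefSeq start on the plus strand, holds none of the letters searched, so that nothing is in capitals. No exon of a GENCODE v29 protein-coding gene lies in this stretch, and exons of non-coding genes were not checked. The SP1 core that COX7C has within the 250 bases searched lies in the part not printed.
COX7C, chr5:86617691-86617903: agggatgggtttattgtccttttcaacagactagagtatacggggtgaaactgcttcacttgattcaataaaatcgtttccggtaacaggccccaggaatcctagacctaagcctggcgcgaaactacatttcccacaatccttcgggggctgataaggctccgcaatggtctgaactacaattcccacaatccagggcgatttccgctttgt

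Genes that serve the pathway without being subunits were called more often than the subunits were, a difference that was not tested. Of 80 tested genes for assembly factors, electron and nucleotide carriers, enzymes of the tricarboxylic acid cycle and regulators of mitochondrial gene expression, 37 (46.2%) were called with shDDX41 #1 against sh-Control, 18 higher and 19 lower, and 21 (26.2%) with shDDX41 #2, 4 higher and 17 lower. These shares stood near the 47.8% and 25.0% of all genes.

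Assembly factors, which help to build the complexes without staying in them, moved in both directions. SDHAF1, which helps to load iron-sulfur clusters onto SDHB, rose with shDDX41 #1 from 12.9 ± 1.15 to 23.8 ± 2.61 CPM (log2 fold change 0.88 ± 0.107, adjusted p = 9.9e-06) while SDHB fell. With shDDX41 #2, 3 of the 4 complex II factors were lower, among them ACN9 (-0.27) and C6orf57 (-0.58). LYRM7, a factor for the insertion of UQCRFS1, fell with shDDX41 #1 from 51.7 ± 1.74 to 30.4 ± 1.38 CPM (-0.77 ± 0.0706, adjusted p = 6.2e-07), and UQCC1 rose by 0.44 on the log2 scale. Of 21 complex IV factors, 5 were higher and 3 lower with shDDX41 #1, and 2 were higher and 6 lower with shDDX41 #2. COX20, which accompanies the mitochondrially encoded COX2 protein, was lower with both hairpins, at 28.9 ± 0.719, 13.2 ± 1.58 and 19.8 ± 1.76 CPM in sh-Control, shDDX41 #1 and shDDX41 #2 (log2 fold changes -1.14 and -0.54). COX19 rose with shDDX41 #1 (0.70), and SCO2, a copper chaperone, fell with shDDX41 #2 (-0.65). Of 14 complex I factors, 2 were higher (ECSIT at 0.36 among them) and 2 lower (FOXRED1 at -0.31 among them) with shDDX41 #1, and with shDDX41 #2 NDUFAF3 was higher (0.23) and NDUFAF4 lower (-0.37). Of the 6 complex III factors, BCS1L was the 1 called with shDDX41 #2 (-0.25). Of the 9 fits without 1 library, 5 lost this call and 4 lost that of NDUFAF3 with shDDX41 #2. Of the 3 complex V factors, TMEM70 (0.33) and ATPAF2 (0.27) were higher with shDDX41 #1, and 3 of the 9 fits without 1 library lost the ATPAF2 call.

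CYCS, cytochrome c itself, was lower with both hairpins, at 379 ± 19.9, 279 ± 36.6 and 306 ± 8.30 CPM (log2 fold changes -0.44 and -0.31). SLC25A6, a carrier that exchanges ADP and ATP, was higher with both, at 807 ± 92.1, 1191 ± 64.6 and 1019 ± 7.57 CPM (0.56 and 0.34). In the tricarboxylic acid cycle, 2 of 13 genes were higher and 5 lower with shDDX41 #1, led by OGDH (-0.66) and IDH3A (-0.51), and with shDDX41 #2 the 2 called, IDH3G (-0.52) and DLST (-0.39), were lower. Of 14 regulators tested, TFAM, which packages mitochondrial DNA and takes part in its transcription, fell with shDDX41 #1 from 159 ± 6.46 to 117 ± 2.99 CPM (-0.44 ± 0.0611, adjusted p = 3.4e-05). TFAM stood at 158 ± 5.04 CPM with shDDX41 #2. GABPB1 was lower with shDDX41 #2 (-0.28). C10orf2, the mitochondrial DNA helicase, was called in opposite directions: 72.4 ± 4.28 CPM with sh-Control, 118 ± 6.88 with shDDX41 #1 (0.70 ± 0.0676, adjusted p = 9.7e-07) and 58.6 ± 0.409 with shDDX41 #2 (-0.31 ± 0.0687, adjusted p = 0.00484).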

How the data were processed

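MOLM13 RNA was isolated from cells sorted on day 4, and mRNA libraries were sequenced by the authors. The deposited table holds raw counts per gene symbol for 9 libraries, with 0 columns unmapped, and no authors' test. The submitters' processing notes name FastQC 0.11.7, HISAT2 2.0.5 and featureCounts 1.5.2 and the builds hg38 and mm10, without roles. The labels describe a stranded kit and the methods another kit of that family. Strand setting, annotation and the treatment of reads that map to several genes are not given in the sources used here, so genes with pseudogenes or overlapping exons are less certain. Of the 25 subunit genes called with at least 1 hairpin, 7 had no pseudogene of their name and no such overlap.

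Counts were fitted in R 4.3.3 with edgeR 4.0.16: filterByExpr with a minimum count of 10 (12712 genes kept), TMM factors (0.963 to 1.022), 1 coefficient per group over all 9 libraries and quasi-likelihood tests (two-sided), with Benjamini-Hochberg adjustment within each contrast. The standard error is the log2 fold change divided by the square root of F. Levels are CPM scaled by TMM, and were not compared between genes as amounts of RNA. Relative log2 levels use a prior count of 2. The biological coefficient of variation was 0.0768. Intervals and limits cover counting error or the spread between libraries only. The scripts were tested on simulated data. GENCODE v29 gave biotypes, exons and pseudogenes, and all 91 symbols matched.

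Named members were the core and main structural subunits, isoform families, and per complex and contrast up to 2 rises and 2 falls among called members whose groups did not overlap. For the other lists, the 2 smallest adjusted p per list and hairpin were named. NDUFA6, NDUFA12, NDUFB6, ATP5SL and UQCRHL were named after their values were seen. The values of 1 member and 1 marker gene are not reported here, though both stay in the counts. The members and lists were chosen with earlier results of these data known. Alternatives were other scalings and filters, DESeq2 1.42.0, limma voom 3.58.1, 6 libraries, a block, GC and length offsets, other thresholds and each library left out.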

Additional observations from a re-analysis of the deposited data

How the results depend on the processing

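The number of members called with shDDX41 #2 against sh-Control was 3 and became 7 with the 6 libraries compared (32.0% of all genes called), 10 with GC and length offsets (31.6%), 11 with these offsets and the replicate block (33.5%), and 1 at an adjusted p under 0.01 (13.1%), against 25.0% of all genes before. Between the hairpins the 21 became 36 with GC and length offsets (53.4% of all genes), 37 with these and the replicate block (54.4%), 12 at an adjusted p under 0.01 (35.0%), and 1 with a fold change of at least 1.5. With shDDX41 #1 against sh-Control the 25 became 2 with that fold change. They became 36 with GC and length offsets, 9 higher and 27 lower, or 43.9% beside 52.9% of all genes. With these and the replicate block they became 37, or 45.1% beside 54.2% of all genes. Leaving out 1 library gave 21 to 32, 1 to 10 and 15 to 35 calls in these contrasts (with shDDX41 #1, with shDDX41 #2, between the hairpins), the 10 and the 35 without shDDX41 #1 D and the 1 without shDDX41 #2 B. In the same order, 41.5% to 48.5%, 15.9% to 32.9% and 40.1% to 49.0% of all genes were called. The complex III median with shDDX41 #2 was 0.01 and ran from -0.08 without sh-Control B to 0.07 without sh-Control D. The other medians stayed within the SD between libraries, and the cause of these changes was not tested.

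Deviations from the group means were correlated between libraries with the same letter. Between sh-Control and shDDX41 #1 the correlations were 0.073, 0.158 and 0.243 (A, B and D). Those with shDDX41 #2 ran from -0.057 to 0.023. Of the 9 libraries, 6 correlated best with their own letter, and whether the letters pair the libraries was not tested. The replicate block gave 26, 3 and 28 members called. No named gene that was called turned its direction under an alternative. Of the 39 calls of named members, 32 to 39 were kept in each refit. Named members that were not called gained a call in some refits: up to 3 with shDDX41 #1, up to 5 with shDDX41 #2 and up to 9 between the hairpins, each with GC and length offsets. NDUFA4L2 rests on few counts, and depth limits the rows near 0.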
